A study of Homo sapiens with 20 samples.

Results

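The genes described here encode the enzymes, membrane proteins, proton pump and transcription factors of the lysosome together with the core machinery of autophagy. They were taken from a list of 47 symbols, and a gene counted as measured where the platform's annotation gave it a probe set with a single gene symbol. This left 38 of the 47 genes, out of 14232 genes measured by the same rule. The other 9 genes (CTSD, CTSL, GLB1, NPC2, BECN1, WIPI1, ATG16L1, GABARAPL1 and SQSTM1) share their probe sets with another symbol and were not analysed. The 38 measured genes comprise 3 transcription factors of the MiT/TFE family, 6 lysosomal proteases, 12 glycosidases, sulfatases and lipid hydrolases with their activator, 6 membrane proteins, 3 subunits of the proton pump and 8 autophagy genes.

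Expression was profiled on 20 exon arrays in LP-1, a multiple myeloma line, and Raji, a Burkitt lymphoma line. Cells received 500 nM of an inhibitor of BET bromodomain proteins, or its inactive enantiomer at that same dose, for 4 or 8 h, and untreated cells were taken at 0 h. Each of the 10 groups had 2 arrays, described as biological replicates, so every p-value here measures the spread between such pairs, and precision is limited by how few arrays there are. Neither compound is named in the labels, no untreated cells were taken at 4 or 8 h, and LP-1 was grown in IMDM and Raji in RPMI medium, so line and medium cannot be told apart.

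Lysosomes are acidified by a vacuolar proton pump, and their hydrolases break down proteins, glycans and lipids delivered by endocytosis or by autophagosomes. TFEB, TFE3 and MITF bind E-box sequences upstream of many lysosomal and autophagy genes, and their activity is set largely by phosphorylation and nuclear entry, which an mRNA level does not show. BET proteins bind acetylated histones, and the comparison of active with inactive compound asks whether these transcripts move when BET proteins are displaced.

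The promoter sequences shown here are those of NEU1, the gene with the largest rise in LP-1 among the 38, and of genes that carry the lysosomal form of the E-box. RefSeq windows of GRCh38.p14, from 250 bases before to 50 bases after each annotated start, were available for 26 of the 38 measured genes. They were searched for CACGTG, which reads the same on both strands, and for its flanked form GTCACGTG or, on the other strand, CACGTGAC. Every flanked match also counts as a CACGTG match. Each sequence below runs 5′ to 3′ on the gene's strand, lies wholly before the start, and has the matched letters in capitals.
NEU1, chr6:31862912-31862977, minus strand: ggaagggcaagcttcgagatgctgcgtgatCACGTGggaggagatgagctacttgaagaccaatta
ATP6V0D1, chr16:67481181-67481246, minus strand: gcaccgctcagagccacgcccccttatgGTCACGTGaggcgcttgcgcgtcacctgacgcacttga
MCOLN1, chr19:7522553-7522623, plus strand: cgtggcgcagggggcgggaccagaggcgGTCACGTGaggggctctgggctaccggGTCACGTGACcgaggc
CTSA, chr20:45891263-45891334, plus strand: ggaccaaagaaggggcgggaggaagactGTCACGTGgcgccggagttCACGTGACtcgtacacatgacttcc
GAA, chr17:80101475-80101580, plus strand: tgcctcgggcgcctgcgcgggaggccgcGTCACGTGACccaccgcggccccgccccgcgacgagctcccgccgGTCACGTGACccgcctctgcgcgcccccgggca
LAMP1, chr13:113297017-113297238, plus strand: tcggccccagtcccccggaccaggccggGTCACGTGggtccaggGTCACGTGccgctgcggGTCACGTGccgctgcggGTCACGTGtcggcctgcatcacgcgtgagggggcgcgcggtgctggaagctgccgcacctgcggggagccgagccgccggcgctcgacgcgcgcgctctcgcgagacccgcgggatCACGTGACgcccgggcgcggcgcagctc
CACGTG was present in the windows of 8 of these 26 genes (30.8%), and in 11.3% of the 11386 genes measured on the arrays that have a window. The flanked form was present in 7 of the 26 (26.9%) and in 4.32% of those genes. The lone CACGTG of NEU1 starts 126 bases before the annotated start and has no flank, whereas LAMP1 holds 5 flanked copies before its start. A match in these letters is a description of the window and not evidence that a factor binds there.

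The arrays and labels were checked before the members were compared. The array medians lay between 5.13 and 5.39 log2 units, and replicate arrays correlated at 0.973 to 0.989 across probe sets. The first array of LP-1 with BET inhibitor at 4 h and the first array of Raji with inactive compound at 4 h had the lowest 75th percentiles. These were 6.80 and 6.75, and those of the other arrays ran from 6.85 to 7.23. MYC, a known target of BET inhibition, was lower with active compound by 2.30 log2 units in LP-1 at 4 h (limma, adjusted p = 5.25e-05), and HEXIM1, a known responder, was higher by 1.04 (adjusted p = 0.00269). All 6 plasma cell markers were lower in untreated Raji than in LP-1, and all 5 measured B cell markers were higher.

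Active compound was followed by a rise of a few lysosomal genes and a fall of FYCO1, while most of the 38 genes passed no threshold. A gene was called where limma's test, gave an adjusted p under 0.05 (Benjamini-Hochberg, over the 22011 probe sets of the table). In LP-1 at 4 h, 0 of the 38 rose and 1 fell, against 0.377% and 1.9% of all probe sets, and 3 of the 38 (7.89%) had an unadjusted p under 0.05, beside 14.3% of all probe sets. In LP-1 at 8 h, 4 rose and 1 fell, against 3.76% and 1.97%. In Raji at 4 h, 3 rose and 1 fell, against 1.44% and 0.341%. In Raji at 8 h, 4 rose and 1 fell, against 0.827% and 1.05%. Across the 4 comparisons 32 genes were never called, CTSB and GLA were called once, NEU1, NPC1 and MAP1LC3B were called in 3 comparisons, and FYCO1 was called in all 4. Fitted on the 10 arrays of its own line alone, limma called 3 genes in LP-1 at 8 h (FYCO1, NEU1 and NPC1) and 0 in the other 3 comparisons, where the highest adjusted p among the genes named as called was 0.124.

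**Figure D1:**
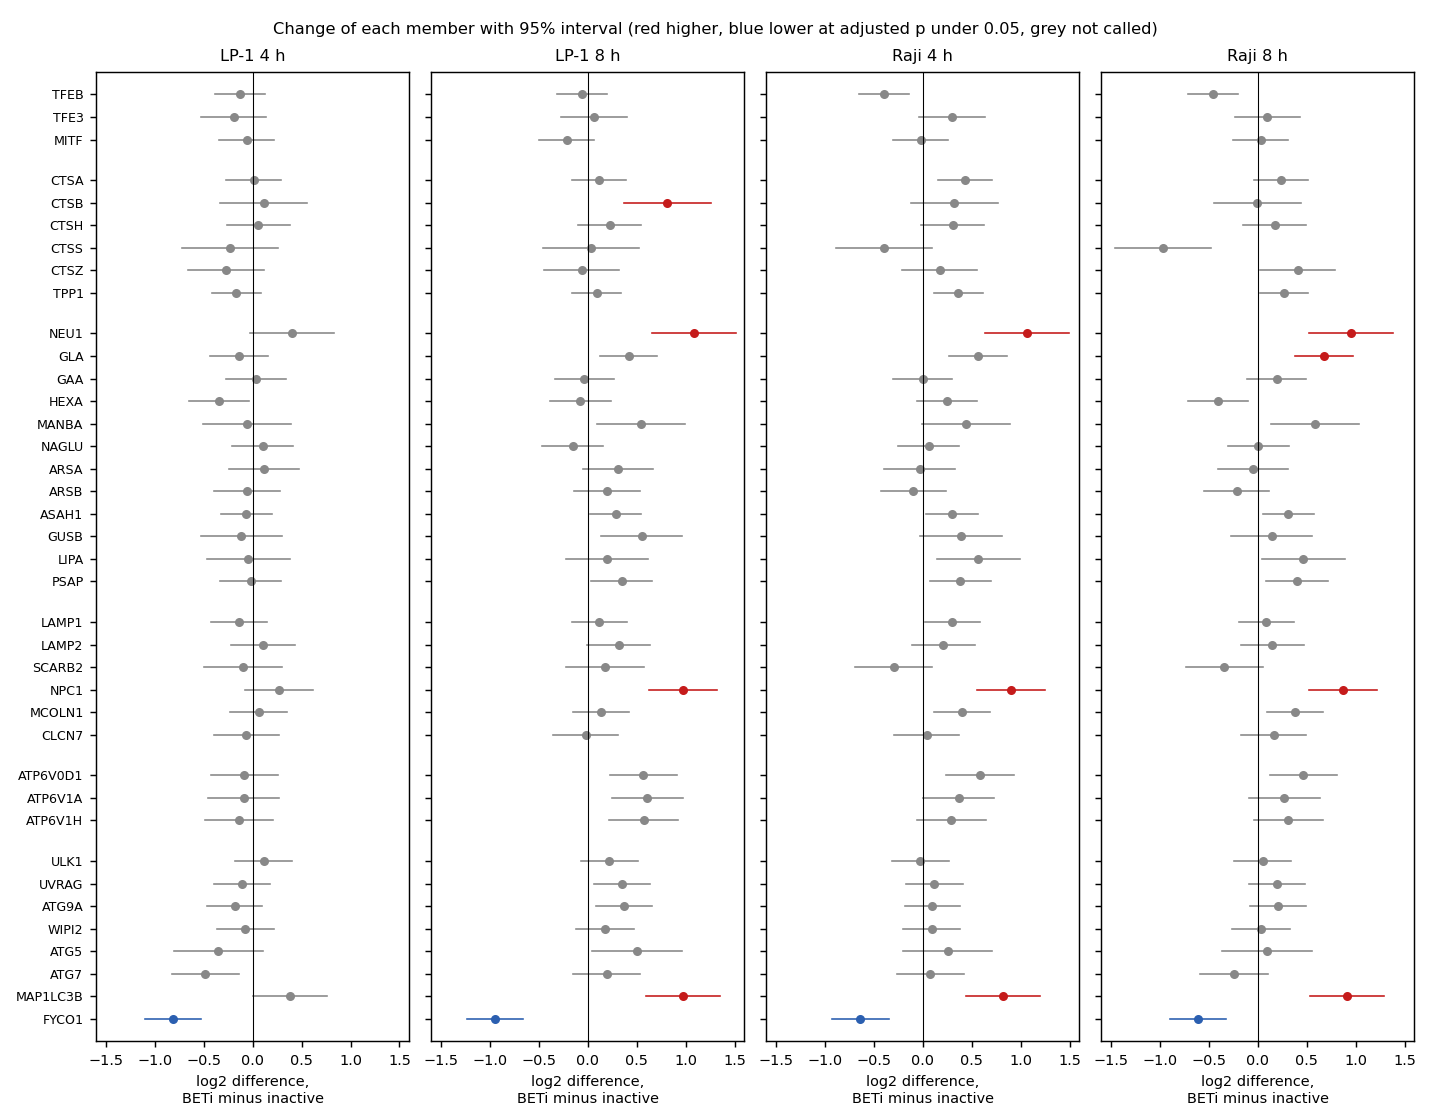
Each point is the log2 difference between BET inhibitor and inactive compound for 1 of the 38 genes, with its 95% interval from limma, in LP-1 and Raji at 4 and 8 h, with the genes grouped by role. NEU1, NPC1 and MAP1LC3B lie to the right in all 4 panels, marked as called in 3, and FYCO1 lies to the left in all 4, while most of the other intervals cross 0.

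The shift of the list as a whole was small. Its differences between lines and times were smaller after quantile normalization than after centring each array on its median. In LP-1 the median difference of the 38 genes was -0.07 at 4 h, beside -0.04 over all probe sets, and 12 genes lay above 0. The LP-1 median was 0.21 at 8 h, beside 0.06 over all probe sets, with 30 genes above 0. In Raji it was 0.27 at 4 h and 0.17 at 8 h, beside 0.01 and -0.00 over all probe sets, with 29 genes above 0 at each time. Of all 22011 probe sets, 9886 and 12982 lay above 0 in LP-1 at 4 and 8 h, and 11344 and 10984 in Raji. An unadjusted p under 0.05 was reached by 16 genes (42.1%) in LP-1 at 8 h, 15 (39.5%) in Raji at 4 h and 16 (42.1%) in Raji at 8 h. Over all probe sets the share at that threshold was 18.9%, 14.1% and 13% in that order. The 38 genes had higher levels, with medians of 5.99 to 7.20 per array, beside 5.13 to 5.39 over all probe sets. The shares, here and elsewhere, were not matched for level. The LP-1 median difference at 4 h changed sign, to 0.11, when the arrays were quantile normalized. The median differences were then 0.14 in LP-1 at 8 h, 0.13 in Raji at 4 h and 0.15 in Raji at 8 h. With centred arrays they were -0.003 and 0.13 in LP-1 at 4 and 8 h, and 0.23 and 0.18 in Raji.

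**Figure D2:**
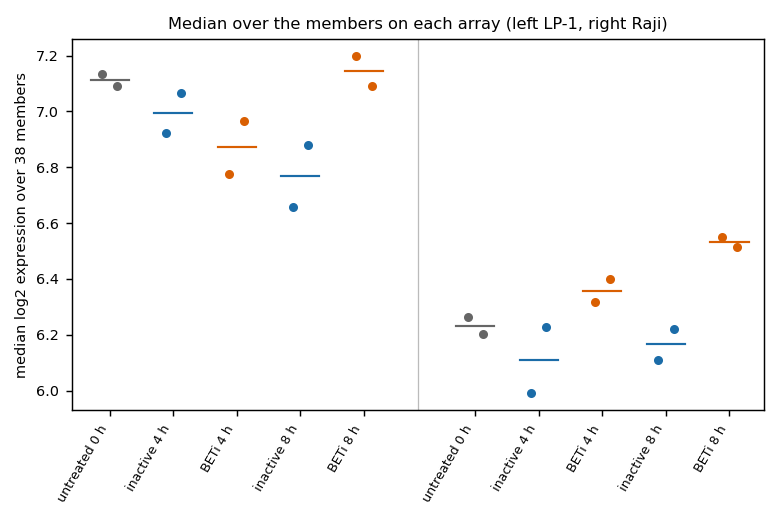
Each point is 1 array and gives the median log2 expression over the 38 genes, and the bars are the means of the 2 arrays of a group, with LP-1 on the left and Raji on the right. The 2 LP-1 arrays with BET inhibitor at 8 h (7.20 and 7.09) lie above the 2 with inactive compound (6.66 and 6.88), and the Raji arrays with BET inhibitor lie above those with inactive compound at both times.

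Among the autophagy genes, FYCO1, an adaptor that links LC3 and RAB7 on autophagosomes to kinesin for transport along microtubules, was the only gene of the 38 called in all 4 comparisons. In LP-1 its log2 level was 5.48 and 5.57 on the arrays with inactive compound at 4 h and 4.67 and 4.74 with BET inhibitor. At 8 h it was 5.46 and 5.59 with inactive compound and 4.42 and 4.72 with BET inhibitor. In both LP-1 comparisons the groups did not overlap, and the untreated arrays, at 5.68 and 5.70, lay above all of these. In Raji the level was 5.35 and 5.61 with inactive compound and 4.92 and 4.77 with BET inhibitor at 4 h. At 8 h in Raji it was 5.49 and 5.31 against 4.75 and 4.83, and the groups again did not overlap. With 2 arrays in each group such separation can arise from replicate spread alone, here and for the genes below. The share of all probe sets without overlap was not counted. FYCO1 fell by 0.82 ± 0.13 log2 units (SE) in LP-1 at 4 h (limma, adjusted p = 0.00765, 1.76-fold). At 8 h in LP-1 it fell by 0.95 ± 0.13 (adjusted p = 0.00162, 1.93-fold). In Raji FYCO1 fell by 0.64 at 4 h, with an adjusted p of 0.0333. It also fell by 0.61 at 8 h, with an adjusted p of 0.0371. The LP-1 call at 8 h held without each of its 4 arrays in turn (adjusted p at most 0.0206), whereas the 4 h call held only without the second BET inhibitor array (otherwise up to 0.0958). The Raji calls were lost without any 1 of the 4 arrays of their comparison, with an adjusted p of up to 0.289 at 4 h and 0.182 at 8 h.

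MAP1LC3B, the LC3 protein that is attached to lipid on the growing autophagosome, moved the other way. On the LP-1 arrays it read 10.03 and 9.92 with inactive compound and 10.07 and 10.63 with BET inhibitor at 4 h. At 8 h the values were 9.72 and 9.88 against 10.87 and 10.68. The groups were apart at both times, but at 4 h by only the small gap between 10.03 and 10.07. In Raji it read 8.62 and 8.37 against 9.33 and 9.29 at 4 h, and 8.09 and 8.44 against 9.14 and 9.21 at 8 h, again with no overlap. The rise was 0.97 ± 0.17 in LP-1 at 8 h (limma, adjusted p = 0.00727, 1.96-fold). For Raji the rise was 0.82 at 4 h, with an adjusted p of 0.0366, and 0.91 at 8 h, with an adjusted p of 0.0198. In LP-1 at 4 h the difference of 0.38 did not pass (adjusted p = 0.35). The LP-1 call was lost without the first array of either group (adjusted p up to 0.0604). In Raji the 4 h call was lost without any 1 of its 4 arrays (up to 0.216), after quantile normalization and after centring the arrays on their medians. It was also lost with the replicate number as a block (adjusted p = 0.0611). The Raji call at 8 h held only without the second inactive array (otherwise up to 0.138).

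The other 6 measured autophagy genes passed in none of the 4 comparisons. ULK1 encodes the initiating kinase, and its differences lay between -0.03 and 0.22. ATG9A, the lipid scramblase of early autophagosomes, had its largest difference in LP-1 at 8 h, 0.37 ± 0.13 (limma, adjusted p = 0.131). UVRAG, a subunit of the class III phosphatidylinositol 3-kinase complex, differed by 0.35 in that comparison, and WIPI2, which binds the lipid that this complex makes, by 0.18. ATG5 and ATG7, which conjugate ubiquitin-like proteins to their targets, stood at -0.35 and -0.48 in LP-1 at 4 h and at 0.50 and 0.19 at 8 h. For ATG7 the 4 h arrays read 6.11 and 6.18 with inactive compound and 5.54 and 5.77 with BET inhibitor, apart but not called (adjusted p = 0.16).

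Of the 12 measured glycosidases, sulfatases and lipid hydrolases, NEU1 and GLA rose. NEU1 is the lysosomal sialidase, which needs the protective protein encoded by CTSA to be active. Its LP-1 values were 7.97 and 7.99 with inactive compound and 8.20 and 8.57 with BET inhibitor at 4 h, and 7.62 and 7.90 against 8.98 and 8.71 at 8 h. Its Raji values were 5.29 and 5.45 against 6.43 and 6.44 at 4 h, and 5.85 and 5.46 against 6.57 and 6.65 at 8 h. In each of the 4 comparisons all arrays with BET inhibitor were above those with inactive compound. NEU1 rose by 1.08 ± 0.20 in LP-1 at 8 h (limma, adjusted p = 0.00814, 2.12-fold). The Raji rise was 1.06, or 2.09-fold, at 4 h, with an adjusted p of 0.0198, and 0.95, or 1.94-fold, at 8 h, with an adjusted p of 0.0307. The Raji values with inactive compound are low and may be near background, so these Raji folds may be too small. The LP-1 difference at 4 h, 0.40, was not called (adjusted p = 0.388). The LP-1 call at 8 h was lost without the first array of either group (up to 0.0724), and each Raji call without any 1 of its 4 arrays (up to 0.157 at 4 h and 0.22 at 8 h).

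GLA encodes alpha-galactosidase A, which removes terminal galactose from glycolipids. In Raji its level was 6.89 and 6.96 with inactive compound and 7.55 and 7.42 with BET inhibitor at 4 h. At 8 h in Raji it was 7.07 and 6.95 against 7.61 and 7.76. The Raji groups were apart at both times. In LP-1 it was 7.98 and 7.96 against 7.79 and 7.87 at 4 h, and 7.61 and 7.86 against 8.32 and 7.97 at 8 h, lower in the first comparison and higher in the second. GLA rose by 0.67 ± 0.14 in Raji at 8 h (limma, adjusted p = 0.0265, 1.59-fold), a call that was lost without any 1 of the 4 arrays (up to 0.192). Raji cells differed by 0.56 at 4 h (adjusted p = 0.059). LP-1 cells differed by -0.14 at 4 h, with an adjusted p of 0.71, and by 0.42 at 8 h, with an adjusted p of 0.102.

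The remaining 10 hydrolases of this class were not called. At 8 h, MANBA (beta-mannosidase) differed by 0.55 in LP-1 and 0.58 in Raji, and GUSB (beta-glucuronidase) by 0.55 and 0.14. PSAP, the precursor of the saposins that activate sphingolipid hydrolases, had differences of 0.35 (LP-1) and 0.40 (Raji) at 8 h (limma, adjusted p = 0.21 and 0.222). LIPA, the acid lipase for cholesteryl esters, reached 0.57 in Raji at 4 h (adjusted p = 0.183). HEXA, the alpha subunit of beta-hexosaminidase A, lay at -0.34 in LP-1 at 4 h and -0.41 in Raji at 8 h (adjusted p = 0.281 and 0.201), although it was at 0.24 in Raji at 4 h. GAA, the acid alpha-glucosidase whose promoter is printed above with 2 flanked E-boxes, differed by between -0.04 and 0.19.

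Lysosomal proteases gave a single call. CTSB, a cysteine cathepsin, read 6.91 and 7.28 with inactive compound and 7.88 and 7.94 with BET inhibitor in LP-1 at 8 h. The groups did not overlap, and CTSB rose by 0.81 ± 0.20 (limma, adjusted p = 0.0366, 1.76-fold). The adjusted p was up to 0.22 without any 1 of these 4 arrays, and up to 0.0643 after centring the arrays or fitting the LP-1 arrays alone, and the call was lost in each case. At 4 h the LP-1 arrays overlapped, at 7.11 and 7.25 against 7.15 and 7.44. In Raji CTSB read 4.14 and 4.50 against 4.58 and 4.71 at 4 h, and 4.70 and 4.29 against 4.57 and 4.41 at 8 h, where the groups overlapped. CTSS, the cathepsin that trims the invariant chain in antigen-presenting cells, was not called in Raji: it read 7.18 and 6.70 with inactive compound and 6.08 and 5.86 with BET inhibitor at 8 h. That difference was -0.97 ± 0.23 (adjusted p = 0.0502), just outside the threshold. CTSA, CTSH, CTSZ and TPP1 differed by between -0.27 and 0.43 and were not called.

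Of the 6 measured membrane proteins only NPC1 was called. NPC1 moves cholesterol out of the lysosome. In LP-1 it read 7.32 and 7.17 with inactive compound and 7.38 and 7.63 with BET inhibitor at 4 h, and 6.92 and 6.86 against 7.96 and 7.75 at 8 h. In Raji it read 5.61 and 5.44 against 6.30 and 6.56 at 4 h, and 5.69 and 5.77 against 6.53 and 6.68 at 8 h. The arrays with BET inhibitor were above those with inactive compound each time, narrowly so in LP-1 at 4 h. NPC1 rose by 0.97 ± 0.16 in LP-1 at 8 h (limma, adjusted p = 0.00475, 1.96-fold). Raji NPC1 rose by 0.90 at 4 h, with an adjusted p of 0.0149, and by 0.87 at 8 h, with an adjusted p of 0.0173. At 4 h in LP-1 the difference was 0.27 (adjusted p = 0.502). The LP-1 call at 8 h held without each array in turn (at most 0.0453). In Raji the 4 h call held only without the first BET inhibitor array (otherwise up to 0.191), and the 8 h call was lost without any 1 of the 4 arrays (up to 0.137).

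The other membrane proteins stayed below the threshold. MCOLN1, a calcium channel of the lysosome, had Raji differences of 0.40 at 4 h and 0.38 at 8 h (limma, adjusted p = 0.169 and 0.2) and LP-1 differences of 0.06 and 0.14. LAMP1 and LAMP2, the abundant glycoproteins of the lysosomal membrane, differed by between -0.14 and 0.31. SCARB2, the receptor that carries glucocerebrosidase to the lysosome, lay in Raji at -0.30 after 4 h and -0.34 after 8 h (adjusted p = 0.528 and 0.492). CLCN7, a chloride-proton exchanger, differed by at most 0.16.

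None of the 3 subunits of the proton pump was called with BET inhibitor. In LP-1 at 8 h, ATP6V1A read 7.49 and 7.90 with inactive compound and 8.25 and 8.35 with BET inhibitor, a difference of 0.61 ± 0.17 (limma, adjusted p = 0.0519). ATP6V1H read 6.31 and 6.50 against 7.12 and 6.84, a difference of 0.57 (adjusted p = 0.0602). ATP6V0D1 read 7.86 and 8.01 against 8.71 and 8.29, also a difference of 0.57 (adjusted p = 0.0569). In LP-1 at 4 h the differences of the 3 subunits were only -0.08 to -0.14. In Raji the subunits differed by 0.29 to 0.58 at 4 h and by 0.27 to 0.47 at 8 h.

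None of the transcription factors was called. TFEB read 5.70 and 5.91 with inactive compound and 5.47 and 5.36 with BET inhibitor in Raji at 4 h, and 5.79 and 5.78 against 5.39 and 5.27 at 8 h. The Raji groups were apart, and the difference was -0.39 ± 0.12 at 4 h and -0.46 ± 0.12 at 8 h, with a 95% interval of -0.71 to -0.20 at 8 h. Neither passed (limma, adjusted p = 0.129 and 0.077). In LP-1 the TFEB arrays overlapped at both times, with differences of -0.13 and -0.06. TFE3 differed in LP-1 by -0.20 at 4 h and 0.06 at 8 h, and in Raji by 0.30 and 0.10. Its arrays read 5.49 to 5.89 in LP-1 and 4.90 to 5.47 in Raji. MITF, which read between 3.60 and 4.27 on all 20 arrays, differed by between -0.22 and 0.03.

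**Figure D3:**
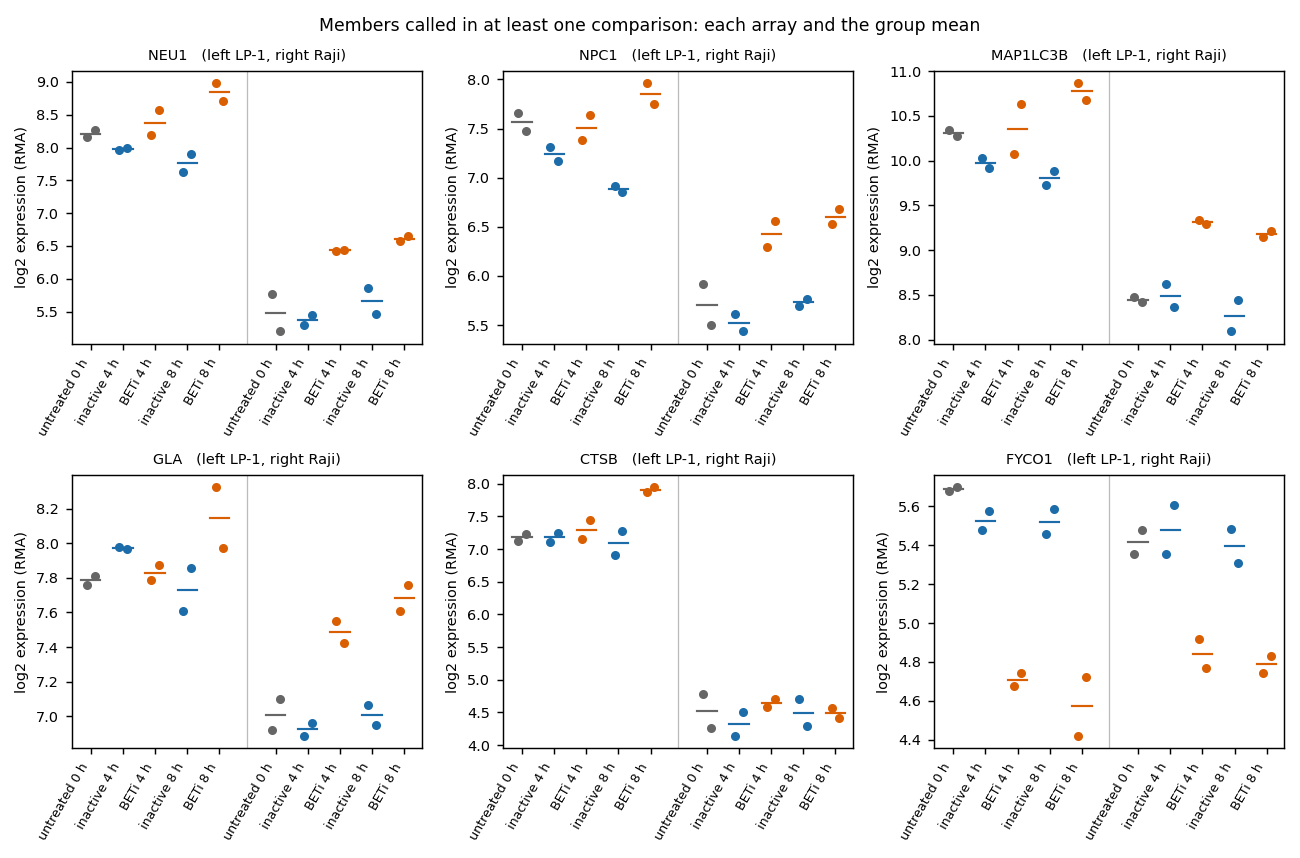
Log2 expression of the 6 genes called in at least 1 comparison, with each array as a point and the group mean as a bar, in untreated, inactive compound and BET inhibitor (BETi) groups of LP-1 (left) and Raji (right); each panel has its own axis. FYCO1 drops with BET inhibitor in both lines and at both times, and the LP-1 arrays of NPC1 with inactive compound at 8 h (6.92 and 6.86) lie below the untreated arrays (7.66 and 7.47).

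The promoter matches were set beside the calls as a description. Of the 6 called genes, 5 had a promoter window, and only that of NEU1 held CACGTG (20%), without the flank. Of the 32 genes never called, 21 had a window, and 7 of these (33.3%) held the flanked form. LAMP1, CLCN7, ATP6V0D1, GAA, MCOLN1, CTSA and ARSB are those 7 genes.

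Of 100 further genes of the same pathways, 77 were measured. In LP-1 at 4 h, 0 rose and 1 fell, against 0.377% and 1.9% of all probe sets. The gene that fell was TMEM192, a lysosomal membrane protein, by 0.66 ± 0.15 (limma, adjusted p = 0.0446). Of the 77, 12 (15.6%) had an unadjusted p under 0.05, beside 14.3% of all probe sets. In LP-1 at 8 h, 8 rose and none of the 77 fell, against 3.76% and 1.97% of all probe sets. An unadjusted p under 0.05 was reached by 26 of the 77 (33.8%), beside 18.9% of all probe sets. CTSK, a collagen-cleaving cathepsin, rose by 1.75 ± 0.31 (adjusted p = 0.00658), and the pump genes ATP6V1D, ATP6V1B2 and ATP6AP2 rose by 0.90, 0.71 and 0.51. RRAGC and RRAGA, GTPases that bring mTORC1 and TFEB to the lysosome, rose by 0.70 and 0.49, OPTN, an autophagy receptor, by 0.69, and MAN2B1, the lysosomal alpha-mannosidase, by 0.50. In Raji at 4 h none of the 77 was called, against 1.44% higher and 0.341% lower over all probe sets. There 19 (24.7%) had an unadjusted p under 0.05, beside 14.1% of all probe sets. In Raji at 8 h, 2 rose and 0 fell, against 0.827% and 1.05% of all probe sets. These were RRAGA, by 0.65 ± 0.12 (limma, adjusted p = 0.0173), and ATP6AP2, by 0.53 (adjusted p = 0.0462). By unadjusted p under 0.05, 13 of the 77 (16.9%) passed in Raji at 8 h, beside 13% of all probe sets. The median of the 77 genes was -0.12, 0.20, 0.17 and 0.13 in the order LP-1 at 4 and 8 h and Raji at 4 and 8 h. Over all probe sets it was -0.04, 0.06, 0.01 and -0.00 in that order.

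None of the 38 genes was called between inactive compound and untreated cells, a comparison in which compound and time in culture are joined. All probe sets were called at 0.0136% in LP-1 at 4 h, 0.504% in LP-1 at 8 h, and 0% in Raji at either time. By limma's unadjusted p under 0.05 there were 3, 11, 6 and 1 of the 38 genes in that order (7.89%, 28.9%, 15.8% and 2.63%), beside 4.95%, 15.1%, 7.91% and 4.52% of all probe sets. In LP-1 at 8 h the median of the 38 was -0.18, beside -0.08 over all probe sets. There 7 of the 38 genes lay above 0, beside 8517 of all 22011 probe sets. NPC1 stood at -0.68 ± 0.16 in that comparison (limma, adjusted p = 0.0846), MAP1LC3B at -0.51 (adjusted p = 0.195) and NEU1 at -0.45 (adjusted p = 0.312). These are the arrays against which the LP-1 response at 8 h was measured. The LP-1 arrays with BET inhibitor at 8 h lay above the untreated arrays too, at 7.96 and 7.75 against 7.66 and 7.47 for NPC1, 8.98 and 8.71 against 8.16 and 8.26 for NEU1, and 10.87 and 10.68 against 10.35 and 10.27 for MAP1LC3B. That difference was not tested. The median over all 38 genes did not lie apart: it was 7.20 and 7.09 on these arrays, 7.14 and 7.09 on the untreated arrays, and 6.66 and 6.88 with inactive compound at 8 h. FYCO1 stood at -0.17 in LP-1 and -0.02 in Raji at 8 h, with all BET inhibitor arrays below the untreated ones.

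The responses of the lines were compared by an interaction contrast. None of the 38 genes was called at 4 h or at 8 h, beside 0.114% and 0.245% of all probe sets, and 11 and 3 of the 38 (28.9% and 7.89%) had an unadjusted p under 0.05 by limma, beside 15.2% and 9.04%. At 4 h the median difference, Raji response minus LP-1 response, was 0.38, beside 0.09 over all probe sets. Of the 38 genes 30 lay above 0, beside 12668 of all 22011 probe sets. After quantile normalization the median 4 h responses of the 38 genes were 0.11 in LP-1 and 0.13 in Raji. With each array centred on its median they were -0.003 and 0.23. GLA had the smallest adjusted p at 4 h, with 0.70 ± 0.19 (limma, adjusted p = 0.134, 95% interval 0.29 to 1.12). At 8 h the median was -0.10, beside -0.07, and CTSS differed most, by -1.0 ± 0.32 (adjusted p = 0.317). CTSB, called in LP-1 and not in Raji at 8 h, differed between the lines by -0.82 ± 0.29 (adjusted p = 0.379), so a difference in its response was not shown. FYCO1 differed by 0.18 at 4 h and 0.34 at 8 h, with intervals of -0.23 to 0.59 and -0.07 to 0.75.

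Set side by side, the 2 lines share no arrays. The correlation of their responses across the 38 genes was 0.585 at 4 h and 0.666 at 8 h (Pearson), beside 0.0304 and 0.251 across all probe sets. The Spearman value was 0.316 and 0.563. These are descriptions across genes, which are not independent replicates, and all arrays share a joint normalization. At 8 h, 24 genes lay above 0 in both lines and 3 below 0 in both, while 11 had opposite signs. At 4 h the signs were opposite for 23 genes.

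Time made no called difference to a response. None of the 38 genes passed for 8 h minus 4 h in either line, and 0% of all probe sets did. By limma's unadjusted p under 0.05, 13 of the 38 genes (34.2%) passed in LP-1 and 1 (2.63%) in Raji, beside 13.2% and 5.71% of all probe sets. The LP-1 median was 0.26, beside 0.11 over all probe sets, with 34 of 38 genes above 0, beside 13617 of all 22011 probe sets. After quantile normalization the median LP-1 responses of the 38 genes were 0.11 at 4 h and 0.14 at 8 h. With each array centred on its median they were -0.003 and 0.13. Among the called genes NPC1 differed by 0.70 ± 0.23 (limma, adjusted p = 0.202), NEU1 by 0.68 (adjusted p = 0.316) and CTSB by 0.70 (adjusted p = 0.32). In the same contrast the proton pump gene ATP6V1H differed by 0.71 (adjusted p = 0.201). FYCO1 differed by -0.13 in LP-1 and 0.03 in Raji. In Raji the median was -0.06.

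More of the 38 genes were called between the untreated lines than in any comparison of compounds. Of the 38 genes 4 were higher in Raji than in LP-1 and 21 were lower, beside 6.79% and 17.5% of all probe sets. The median difference was -0.55, beside -0.03 over all probe sets. SCARB2 read 9.22 and 9.50 in LP-1 and 5.0 and 5.05 in Raji, a difference of -4.33 ± 0.18 (limma, adjusted p = 1.9e-09). NEU1 read 8.16 and 8.26 against 5.77 and 5.20 (-2.73 ± 0.20, limma, adjusted p = 3.01e-07, 6.62-fold). Its Raji values are low and may be near background, so this fold may be too small. CTSB read 7.13 and 7.24 against 4.79 and 4.26 (-2.66 ± 0.20, adjusted p = 4.94e-07). For these 3 genes the groups did not overlap, and the lines lay further apart than any pair of replicate arrays.

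Of the 6 measured proteases 2 were higher in Raji and 3 lower. The low values of SCARB2 and CTSB in Raji, and of CTSH and CTSS in LP-1, cannot be told from background, so no fold is given for these genes. CTSH, an aminopeptidase, read 4.77 and 4.66 in LP-1 and 7.05 on each Raji array, a difference of 2.34 ± 0.15 (limma, adjusted p = 7.81e-08). CTSS read 4.49 and 4.48 in LP-1 and 6.89 and 6.73 in Raji (2.32 ± 0.23, adjusted p = 4.9e-06). TFEB was higher in Raji by 0.66 ± 0.12 (5.19 and 5.05 against 5.82 and 5.74, adjusted p = 0.00094), whereas TFE3 was lower by -0.47 ± 0.15 (5.78 and 5.61 against 5.18 and 5.27, adjusted p = 0.0438). UVRAG was higher by 0.40 (adjusted p = 0.0418). The level of TFEB and that of most lysosomal enzymes ran in opposite directions between the lines. The values of TFEB in untreated LP-1 and of TFE3 in untreated Raji are low and may be near background.

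The lower level in Raji spread across most roles. Of the 12 hydrolases 9 were lower and none was higher, with a median of -0.80, among them HEXA (-1.83), PSAP (-1.30), GUSB (-1.28) and LIPA (-1.20). Of the 6 membrane proteins 5 were lower, among them NPC1 (-1.86), LAMP2 (-1.28) and LAMP1 (-0.88), and CLCN7 was not called (-0.08). Among the proteases CTSA (-1.68) and TPP1 (-1.29) were lower together with CTSB. MAP1LC3B (-1.86) and ATG9A (-0.75) were the 2 autophagy genes lower in Raji, and 1 pump subunit, ATP6V0D1 (-0.93), was lower. FYCO1 did not differ beyond the test (-0.27, limma, adjusted p = 0.179). Of the 77 further pathway genes 42 were lower in Raji and 5 higher, beside 17.5% and 6.79% of all probe sets.

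**Figure D4:**
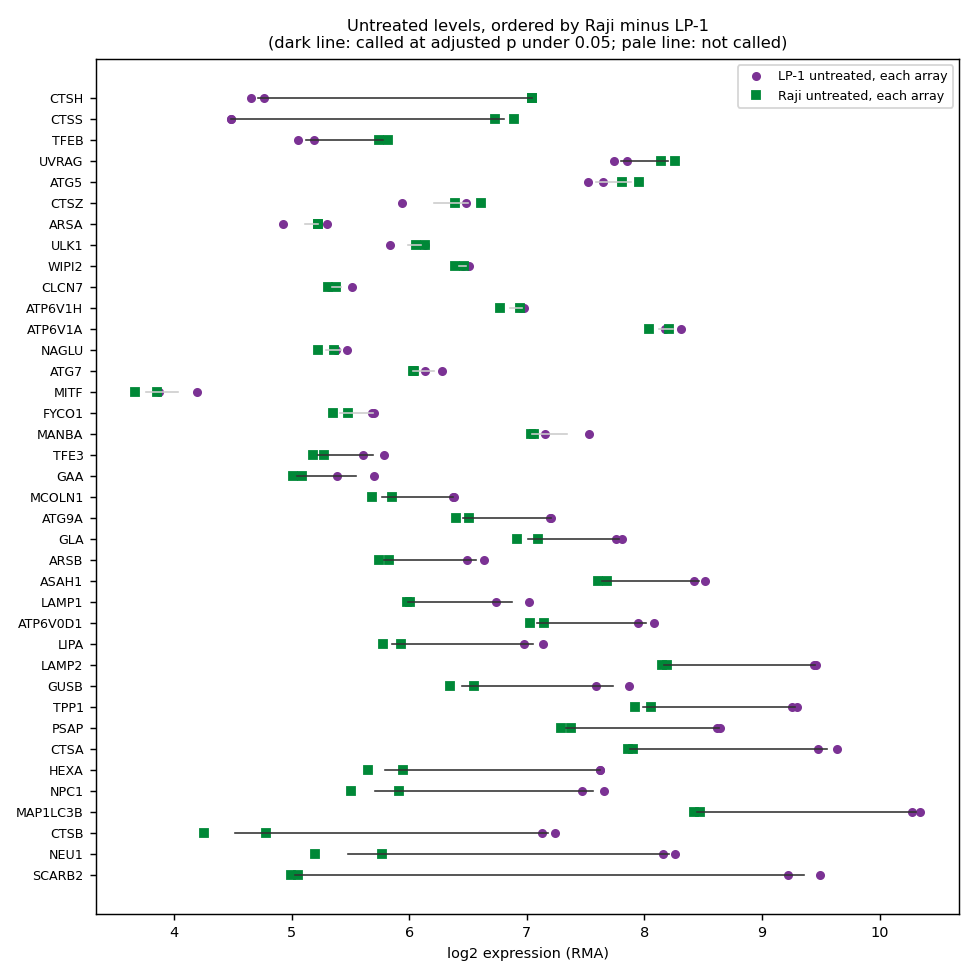
Log2 expression of the 38 genes on each untreated array of LP-1 (circles) and Raji (squares), ordered by the difference Raji minus LP-1, where a dark line joins the group means of genes called at an adjusted p under 0.05. CTSH and CTSS at the top are higher in Raji, and SCARB2, NEU1 and CTSB at the bottom are lower.

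Several markers moved with the treatment or marked the lines. The summed level of the 6 plasma cell markers, given as their mean, was 8.95 with inactive compound and 8.53 with BET inhibitor in LP-1 at 4 h. At 8 h it was 8.97 and 8.45. The 6 markers did not fall alike: in LP-1 at 8 h TNFRSF17 went from 8.84 to 6.48. There 2 of the 6 were higher with BET inhibitor, PRDM1 (9.95 to 10.31) and IRF4 (11.16 to 11.21). In Raji the mean of the 5 B cell markers was 8.77 and 8.53 at 4 h, and 8.92 and 8.32 at 8 h. The plasma cell markers in Raji went from 6.0 to 5.47 at 4 h and from 6.06 to 5.35 at 8 h. Called lower were 1 plasma cell marker in LP-1 at each time, 2 in Raji at each time, and 1 B cell marker in Raji at 8 h. Their part in the changes of the lysosomal genes was not tested. Of 22 measured markers of myeloid, T and NK, epithelial, fibroblast and erythroid cells, 0 were called by limma in any of the 4 comparisons (unadjusted p under 0.05 for 1, 3, 1 and 1), and the mean of the 6 myeloid markers lay between 3.80 and 4.25 on all 20 arrays. The epithelial marker KRT8 was high in both lines, with means of 8.99 in untreated LP-1 and 9.11 in untreated Raji. In LP-1 at 8 h its mean was 8.98 with inactive compound and 6.72 with BET inhibitor, without a call. The mean of the 7 epithelial and fibroblast markers was 3.77 on the first of these BET inhibitor arrays and 4.32 on the second. No detection p-values were used, so low values cannot be told from background. Among these are MITF on all arrays, TFEB in untreated LP-1, CTSB and TFE3 in Raji, NEU1 in Raji without BET inhibitor, and FYCO1 with BET inhibitor, at 4.42 to 4.92. The printed folds of FYCO1 may therefore understate its fall, and the Raji folds of NEU1 its differences.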

How the data were processed

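Total RNA of 20 samples of LP-1 and Raji was hybridised to exon arrays. The deposited values are log2 gene-level expression, made by the authors with RMA in Affymetrix Expression Console on build hg19, per the submitters' processing notes; versions are not given in the sources used here. Probe sets were named from the platform annotation: of 22011, 14432 carry 1 symbol, 2408 several and 5171 none, and 14404 were matched by Entrez identifier. Per gene the probe set with the highest mean would be kept; no listed gene had more than 1.

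limma 3.58.1 in R 4.3.3 fitted 1 mean per group over all 20 arrays (10 residual degrees of freedom) and tested 13 contrasts two-sided; p-values were adjusted by the Benjamini-Hochberg method across the whole table, and the procedure was tested on simulated data. The standard errors of the 38 genes were 0.115 to 0.227, so their 95% intervals reach 0.249 to 0.491 to either side. All genes of the list may be named; arrays or ranges are given for TFEB, TFE3 and MITF, arrays for genes called with BET inhibitor, and for the largest differences between the lines. Other genes given by array (ATG7, CTSS with BET inhibitor and the pump subunits) were chosen after their values were seen. The members, roles and further lists were chosen with earlier results of these data known.

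Alternatives were quantile normalization, centring of arrays, a replicate block, the arrays of the line alone, a filter on low probe sets, a variance trend, and leaving out each array.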

Additional observations from a re-analysis of the deposited data

How the results depend on the processing

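Only quantile normalization and centring could have reversed the direction of a call. The other alternatives left each difference unchanged or dropped 1 array from groups that did not overlap. All 15 calls of single genes between BET inhibitor and inactive compound kept their direction under quantile normalization and centring. Of these, 3 (FYCO1, NEU1 and NPC1 in LP-1 at 8 h) also kept an adjusted p under 0.05 under each of the 6 alternatives that left out no array of the line, and 2 (FYCO1 and NPC1 in LP-1 at 8 h) without each array in turn. Fitting only the 10 arrays of the line, with fewer arrays to estimate the spread, the genes called of the 38 fell in LP-1 from 1 to 0 at 4 h and from 5 to 3 at 8 h, and in Raji from 4 to 0 at 4 h and from 5 to 0 at 8 h. Filtering out the 33.3% of probe sets with the lowest mean raised the LP-1 count at 8 h to 8, with fewer probe sets tested and 1 gene of the 38 left out. Leaving out 1 array gave 0 to 1 calls (LP-1, 4 h), 2 to 6 (LP-1, 8 h), 0 to 1 (Raji, 4 h) and 0 to 1 (Raji, 8 h). At 4 h the count was 0 without the first BET inhibitor array of LP-1 or the first inactive array of Raji, which stood apart. It was also 0 without either inactive array of LP-1, the second BET inhibitor array of Raji or its second inactive array. Under quantile normalization the median of the 38 genes changed from -0.07 to 0.11 in LP-1 at 4 h. In Raji at 4 h it changed from 0.27 to 0.13. The cause was not tested. With centred arrays these medians were -0.003 and 0.23. Same-numbered replicates showed little shared deviation (r -0.0346 to 0.121 in LP-1, -0.160 to 0.0507 in Raji). No strong replicate effect was seen, but such correlations cannot show whether the arrays were paired. With a replicate block the counts were 1, 6, 3 and 5 in LP-1 at 4 and 8 h and Raji at 4 and 8 h, and 24 between the untreated lines, where 25 were called without it. The alternative of another probe set per gene gave nothing to run, since no gene of the list has more than 1.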
